A study of Capsella grandiflora x Capsella rubella and Capsella rubella and Capsella grandiflora with 8 samples.

Results

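Hybrid seeds with a C. rubella mother and a C. grandiflora father (Cr × Cg, female parent first) were compared with C. grandiflora seeds (Cg), so that the father was C. grandiflora in both crosses and the mother changed from C. grandiflora to C. rubella. The comparison rests on 4 of the 8 libraries of the series, 2 per cross, which were taken by the cross that the labels and the count table name. Each replicate pooled 300 to 500 whole seeds at 6 days after pollination (DAP), and flowers of all crosses were emasculated and pollinated by hand, also in the selfing species C. rubella. The study's methods name the accessions Cr48.21 for C. rubella and Cg4a for C. grandiflora, so that differences between the species are differences between these accessions. For its seed counts the paper lists another C. grandiflora accession as the mother of the Cg cross. Whether the Cg libraries had that mother is not stated. The remaining crosses, C. rubella (Cr) and C. grandiflora × C. rubella (Cg × Cr), share a C. rubella father and give the same exchange of the mother with the other father. With a C. grandiflora father this exchange leads from parental to hybrid seeds, and with a C. rubella father from hybrid to parental seeds.

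A seed consists of the embryo, the endosperm that nourishes it, and the seed coat, which is formed by the mother alone. In Arabidopsis and its relatives the endosperm first grows as a syncytium of dividing nuclei and later cellularizes, when walls are laid down between the nuclei with the help of the phragmoplast, a microtubule array that also builds the cell plate in dividing cells. Endosperm carries maternal and paternal genomes in unequal dose, and many imprinted genes are expressed there. The exchange of the mother therefore changed the seed coat and the maternal genome of embryo and endosperm at the same time, which cannot be told apart in RNA of whole seeds. Fewer cells of a type and less RNA per cell cannot be told apart either.

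Totals of the 4 libraries ranged from 24838286 to 34290034 counts, and this was also the range over all 8 libraries. Of 26521 genes in the table, 21214 passed the filter on low counts and were tested. Levels are given as CPM, counts scaled to a common library size after normalisation, and fold changes as log2 fold change ± SE, where the SE is derived from the test statistic and restates the test. Correlations of log2 CPM between the libraries of a cross were between 0.96 and 0.969 over the tested genes, which are not independent of each other. Replicate 2 of Cg × Cr correlated more closely with the Cr × Cg libraries (r = 0.852 and 0.816) than replicate 1 did (0.82 and 0.767). The paper calls the replicates biological, without naming plants, and p-values measure the spread between these libraries.

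Replacing the C. grandiflora mother by C. rubella changed 3155 genes at an adjusted p under 0.05 (edgeR's quasi-likelihood test), which is 14.9% of the genes tested. Expression rose in Cr × Cg for 1544 genes (7.28%) and fell for 1611 genes (7.59%). The higher genes had a median log2 fold change of 2.24 (quartiles 1.29 and 3.77) and the lower genes of -1.94 (quartiles -2.98 and -1.21), while the median over all tested genes was 0.01. In all 3155 called genes both Cr × Cg libraries lay on one side of both Cg libraries, as they did in 58.3% of all tested genes. The counts depended on each of the 4 libraries. Leaving out Cg replicate 1 left 440 higher and 660 lower genes, and leaving out Cg replicate 2 left 548 and 963. Leaving out Cr × Cg replicate 1 left 890 and 891, and leaving out its replicate 2 left 540 and 569. In these fits the lone remaining library of a cross is assumed to vary like the other crosses. With each of the 4 left out in turn, 770 genes kept their call and direction, 312 of them higher and 458 lower.

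**Figure D1:**
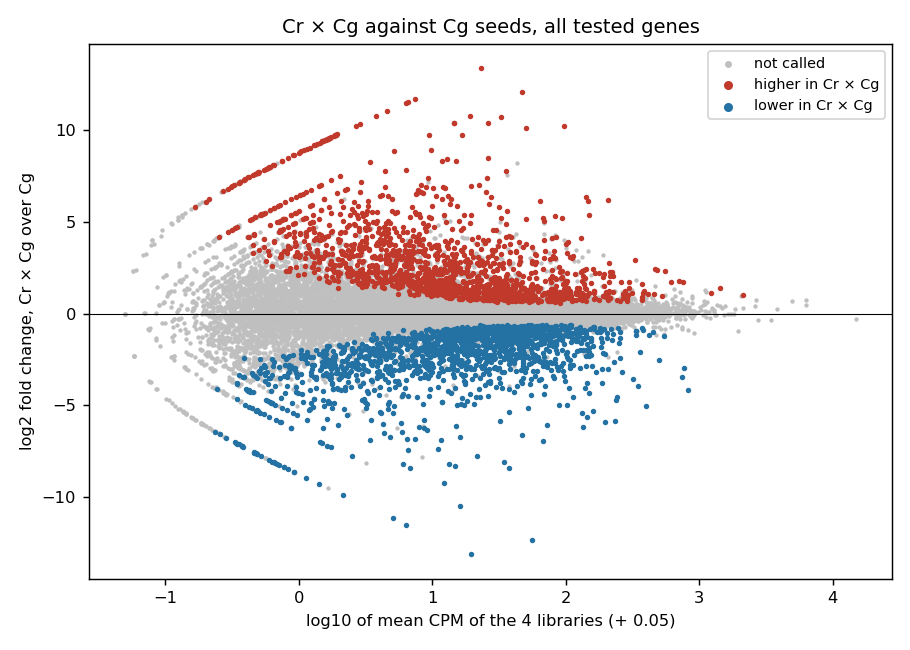
Log2 fold change of Cr × Cg over Cg (y axis) against the log10 of the mean CPM of the 4 libraries (x axis) for the 21214 tested genes. Grey points were not called, red points are the 1544 genes higher and blue points the 1611 genes lower in Cr × Cg.

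Gene roles were taken from the Arabidopsis partner of a Capsella gene, and partners were known for 3316 of the tested genes (15.6%). Most of these pairs come from the study's lists of genes that were deregulated in hybrid Capsella seeds or in Arabidopsis seeds with an excess of paternal or maternal genomes. Among the paired genes 40.4% were called, against 14.9% of all genes, and the share of a list was read against this higher value. For each list with at least 5 tested members, those that entered through Arabidopsis seeds are counted apart, since members chosen on these Capsella libraries are not independent evidence of a direction. Members from Arabidopsis seeds were themselves selected as deregulated there, and their direction there was not counted. Genes without a partner were not examined, so neither count describes a whole gene family.

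Those genes of the machinery that builds the cell plate that had a partner were mostly lower in Cr × Cg than in Cg. Partners were known for 13 of 29 listed phragmoplast and cell plate genes and for 24 of 58 listed kinesins. Over all tested genes 7.59% were called lower, and among all paired genes 40.4% were called in either direction. All 13 tested homologues of phragmoplast and cell plate genes fell, with a median log2 fold change of -2.13. Of these, 9 had entered through Arabidopsis seeds, and 9 of 9 fell. Kinesins, motor proteins that move along microtubules, fell in 19 of 24 cases, 13 of 16 among those from Arabidopsis seeds, and none was higher. Their median was -1.81, and the other 5 kinesins had values between -0.68 and 1.36 without passing the test.

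The homologue of HINKEL (Carubv10008207m.g, AT1G18370), a kinesin required for cytokinesis, had 84.4 and 94.1 CPM in Cg and 11.5 and 8.22 CPM in Cr × Cg. It had 79.7 and 100.4 CPM in Cr and 65.7 and 76.1 CPM in Cg × Cr. The gene was thus low in Cr × Cg alone, with a log2 fold change against Cg of -3.18 ± 0.24 (adjusted p = 0.0004). A kinesin of the phragmoplast, KINESIN-12B (Carubv10012821m.g, AT3G23670), had 75.3 and 58.7 CPM in Cg and 11.3 and 9.82 CPM in Cr × Cg. Its level was 70.8 and 82.7 CPM in Cr and 60.3 and 68.0 CPM in Cg × Cr, and its log2 fold change was -2.66 ± 0.21 (adjusted p = 0.00055).

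CSLD5 (Carubv10008123m.g, AT1G02730) encodes a cellulose synthase-like protein that acts at the forming cell plate. Its homologue had 138 and 156 CPM in Cg against 17.6 and 10.4 CPM in Cr × Cg, a log2 fold change of -3.39 ± 0.29 (adjusted p = 0.00070). The homologue of TANGLED1 (TAN1, Carubv10013577m.g, AT3G05330), a protein that marks the division plane, had 19.8 and 15.9 CPM in Cg and 2.12 and 1.81 CPM in Cr × Cg, a log2 fold change of -3.18 ± 0.27 (adjusted p = 0.00070). KNOLLE (Carubv10012277m.g, AT1G08560), the syntaxin of the cell plate, was chosen after its values had been seen. It had 356 and 337 CPM in Cg and 36.4 and 13.8 CPM in Cr × Cg, and its log2 fold change was -3.78 ± 0.46 (adjusted p = 0.0026). KNOLLE had 385 and 443 CPM in Cr and 215 and 312 CPM in Cg × Cr, and for all 3 genes every library of the other crosses lay above those of Cr × Cg.

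Summed over the 13 phragmoplast and cell plate genes, the level was 1357 and 1238 CPM in Cg, 295 and 239 CPM in Cr × Cg, 1367 and 1700.1 CPM in Cr, and 1043 and 1253 CPM in Cg × Cr. The 24 kinesins summed to 1408 and 1302 CPM in Cg, 404 and 420.1 CPM in Cr × Cg, 1298 and 1637 CPM in Cr, and 1103 and 1282 CPM in Cg × Cr. In both lists the Cr × Cg libraries were thus the lowest of the 8. Leaving out 1 of the 4 libraries compared kept between 12 and 13 of the 13 genes and between 17 and 19 of the 24 kinesins called lower.

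Mitotic cyclins and their kinase moved with them. Partners were known for 12 of 20 listed A- and B-type cyclins and B-type cyclin-dependent kinases. Of these 12, all tested and all from Arabidopsis seeds, 11 fell and none rose, with a median log2 fold change of -1.73. Thus 91.7% were called, against 40.4% of all paired genes. The homologue of CYCB1;2 (Carubv10000856m.g, AT5G06150) had 96.2 and 109.5 CPM in Cg and 37.4 and 31.2 CPM in Cr × Cg, a log2 fold change of -1.58 ± 0.18 (adjusted p = 0.002). CYCB1;3 (Carubv10013824m.g, AT3G11520) had 49.7 and 36.3 CPM in Cg and 7.64 and 6.11 CPM in Cr × Cg, a log2 fold change of -2.64 ± 0.31 (adjusted p = 0.0021). The list summed to 495 and 493 CPM in Cg, 166 and 121 CPM in Cr × Cg, 472 and 595 CPM in Cr and 433 and 455 CPM in Cg × Cr. Leaving out either Cg replicate left 7 called members, and leaving out Cr × Cg replicate 1 or 2 left 11 or 4. Of the tubulins, 1 member was tested, TUB8, and it fell (adjusted p = 0.064 without Cr × Cg replicate 2).

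**Figure D2:**
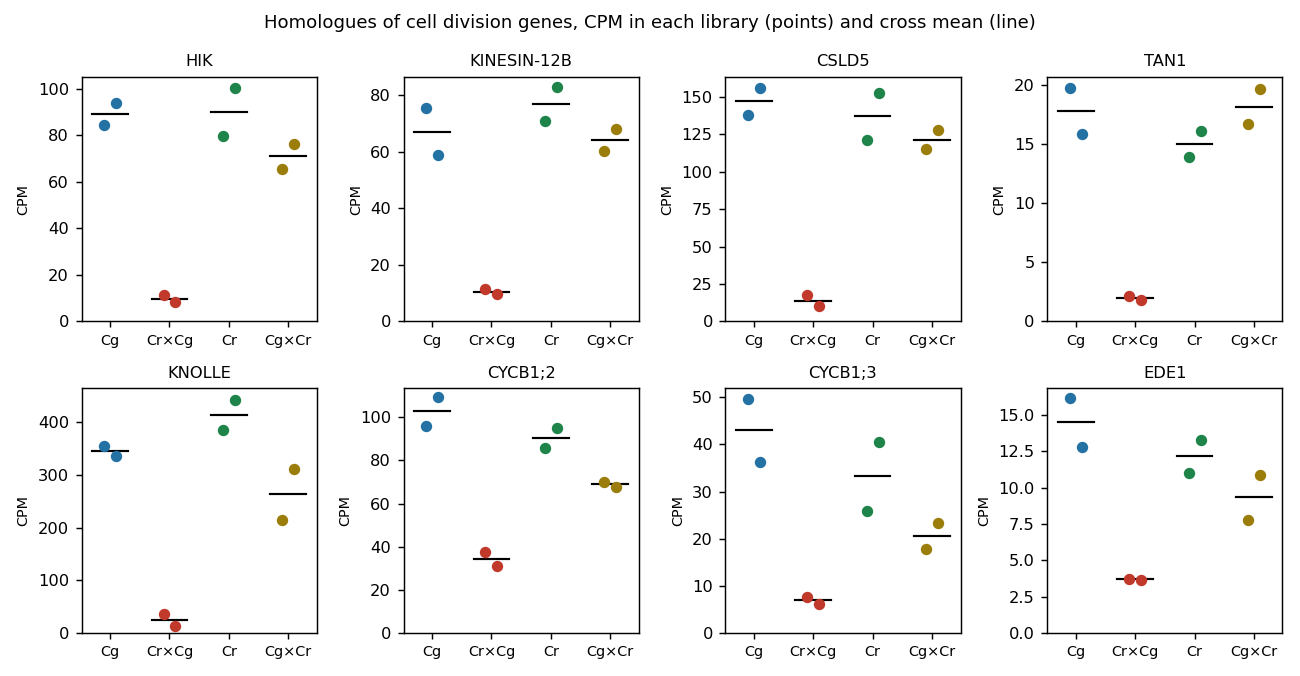
CPM (y axes, from 0) of 8 homologues of cell division genes in the libraries of Cg, Cr × Cg, Cr and Cg × Cr. Points are libraries and lines the means of 2 libraries. In each panel the Cr × Cg points lie below all points of the other crosses, for example at 11.5 and 8.22 CPM for HIK (HINKEL).

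Several imprinted genes were called higher in Cr × Cg. Of 10 tested homologues of genes imprinted in Arabidopsis endosperm and of Polycomb repressive complex 2 subunits, 7 rose and none fell. The median log2 fold change was 2.15, and 6 of 7 rose among those from Arabidopsis seeds. The share called was 70.0%, against 40.4% of all paired genes, and 7.28% of all tested genes were called higher. Of the 3 members that did not pass, 2 had values below 0, at -1.73 and -0.80, and DESeq2 called 1 member lower. The summed level of the list was 394 and 280.0 CPM in Cg, 414 and 803 CPM in Cr × Cg, 159.7 and 244 CPM in Cr, and 64.9 and 110.2 CPM in Cg × Cr. The sum of Cr × Cg replicate 1 was close to that of Cg replicate 1. Leaving out Cg replicate 1, Cg replicate 2 or Cr × Cg replicate 2 left 1 member called higher, and leaving out Cr × Cg replicate 1 left 6.

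TAR1 (Carubv10011523m.g, AT1G23320), related to an auxin biosynthesis enzyme, had 6.09 and 3.11 CPM in Cg and 33.7 and 68.3 CPM in Cr × Cg. It had 2.70 and 3.71 CPM in Cr and 2.32 and 5.22 CPM in Cg × Cr. Its log2 fold change was 3.47 ± 0.55 (adjusted p = 0.007), and the call held without any 1 of the 4 libraries. FWA (Carubv10007084m.g, AT4G25530), a homeodomain gene expressed from maternal alleles in Arabidopsis endosperm, had 9.59 and 6.07 CPM in Cg and 22.7 and 53.8 CPM in Cr × Cg, a log2 fold change of 2.29 ± 0.45 (adjusted p = 0.015). MEDEA (MEA, Carubv10012183m.g, AT1G02580), a maternally expressed Polycomb subunit, was named after its values had been seen. It had 0.799 and 0.999 CPM in Cg and 8.18 and 8.35 CPM in Cr × Cg, a log2 fold change of 3.20 ± 0.83 (adjusted p = 0.038). HDG3 (Carubv10022676m.g, AT2G32370), also named after its values had been seen, did not pass the test, with 283 and 205 CPM in Cg and 138 and 142 CPM in Cr × Cg (adjusted p = 0.11). The other called members, given here to complete the list, all rose. Their log2 fold changes were 2.36 (AT1G48910), 2.00 (AT1G49290), 1.58 (AT1G17770) and 2.99 (AT3G03260). Whether maternally and paternally expressed members differed was not tested. The FWA call was lost without Cg replicate 1 (adjusted p = 0.054), Cg replicate 2 (0.089) and Cr × Cg replicate 2 (0.091), and that of MEA without each of the 4 libraries (0.11 to 0.18).

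Endosperm markers did not move as a block. Of 12 tested, 4 rose and 2 fell, 3 and 1 among the 8 from Arabidopsis seeds, and the median log2 fold change was -0.59. The members that rose included MINI3 and also MEA and FWA, which are in the list of imprinted genes too. Leaving out Cg replicate 1, Cg replicate 2 or Cr × Cg replicate 2 left no member called higher, and leaving out Cr × Cg replicate 1 left 2. Without Cg replicate 1 or Cr × Cg replicate 1 or 2, 1 member remained called lower. MINI3 (Carubv10011619m.g, AT1G55600), a WRKY factor required for endosperm growth, had 5.99 and 6.69 CPM in Cg and 41.8 and 47.9 CPM in Cr × Cg, against 0.919 and 2.07 CPM in Cr and 0.266 and 1.02 CPM in Cg × Cr (log2 fold change 2.82 ± 0.52, adjusted p = 0.012). ZHOUPI (ZOU, Carubv10011964m.g, AT1G49770), a factor required for the breakdown of endosperm, had 38.3 and 34.0 CPM in Cg and 6.36 and 6.79 CPM in Cr × Cg (log2 fold change -2.46 ± 0.42, adjusted p = 0.0093). EDE1 (Carubv10023133m.g, AT2G44190), a microtubule protein of the endosperm that is also in the phragmoplast list, had 16.2 and 12.8 CPM in Cg and 3.70 and 3.67 CPM in Cr × Cg (log2 fold change -1.97 ± 0.30, adjusted p = 0.0053). The markers that rose and those that fell are both endosperm genes, and the summed levels of the 12 overlapped, at 336 and 225 CPM in Cg and 257 and 275 CPM in Cr × Cg. MINI3 lost its call without Cg replicate 1 (adjusted p = 0.089), Cg replicate 2 (0.069) and Cr × Cg replicate 2 (0.059), and ZOU without Cg replicate 1 (0.051), Cr × Cg replicate 1 (0.057) and Cr × Cg replicate 2 (0.063).

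Of 7 tested embryo markers, 4 fell and 1 rose (4 and 0 of the 6 from Arabidopsis seeds), with a median log2 fold change of -1.53. Thus 71.4% were called, against 40.4% of all paired genes. LEAFY COTYLEDON1 (LEC1, Carubv10011036m.g, AT1G21970), a regulator of embryo maturation, had 174 and 78.0 CPM in Cg and 10.6 and 25.6 CPM in Cr × Cg, against 147 and 148 CPM in Cr (log2 fold change -2.80 ± 0.53, adjusted p = 0.015). WOX8 (Carubv10027735m.g, AT5G45980), a homeobox gene of the basal embryo lineage, had 31.6 and 20.2 CPM in Cg and 3.64 and 4.85 CPM in Cr × Cg (log2 fold change -2.61 ± 0.46, adjusted p = 0.0095). LEC2 (Carubv10010882m.g, AT1G28300), chosen after its values had been seen, had 103 and 100.4 CPM in Cg and 30.5 and 39.6 CPM in Cr × Cg (log2 fold change -1.53 ± 0.32, adjusted p = 0.017). PIN4 (Carubv10016856m.g, AT2G01420), an auxin efflux carrier, was the member that rose, from 7.56 and 9.43 CPM to 37.4 and 42.5 CPM (log2 fold change 2.23 ± 0.25, adjusted p = 0.0018). The calls of LEC1 (0.067 without Cg replicate 1), WOX8 (0.054 with Cg replicate 1 left out, and 0.055 with Cr × Cg replicate 1 left out) and LEC2 (0.059 to 0.088 without each of the 4) were lost when a library was left out. Leaving out Cg replicate 1 left no embryo marker called lower, and leaving out any other of the 4 libraries left 2. Summed embryo markers were 398 and 243 CPM in Cg and 115 and 125 CPM in Cr × Cg. None of the 3 seed coat markers with a partner was called, and they summed to 285 and 313 CPM in Cg and 372 and 453 CPM in Cr × Cg. The rise of PIN4 held with each of the 4 libraries left out in turn, and no fall of an embryo marker did. The summed embryo markers were thus lower in the same libraries as the division genes, though not each member. The part of the embryo in that difference was not tested. The paper describes endosperm cellularization as complete in Cg seeds by the day sampled. It describes Cr × Cg endosperm as still not cellularized the day after, with much delayed embryos. The crosses thus differed in developmental stage, and the part of stage in these differences was not tested.

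**Figure D3:**
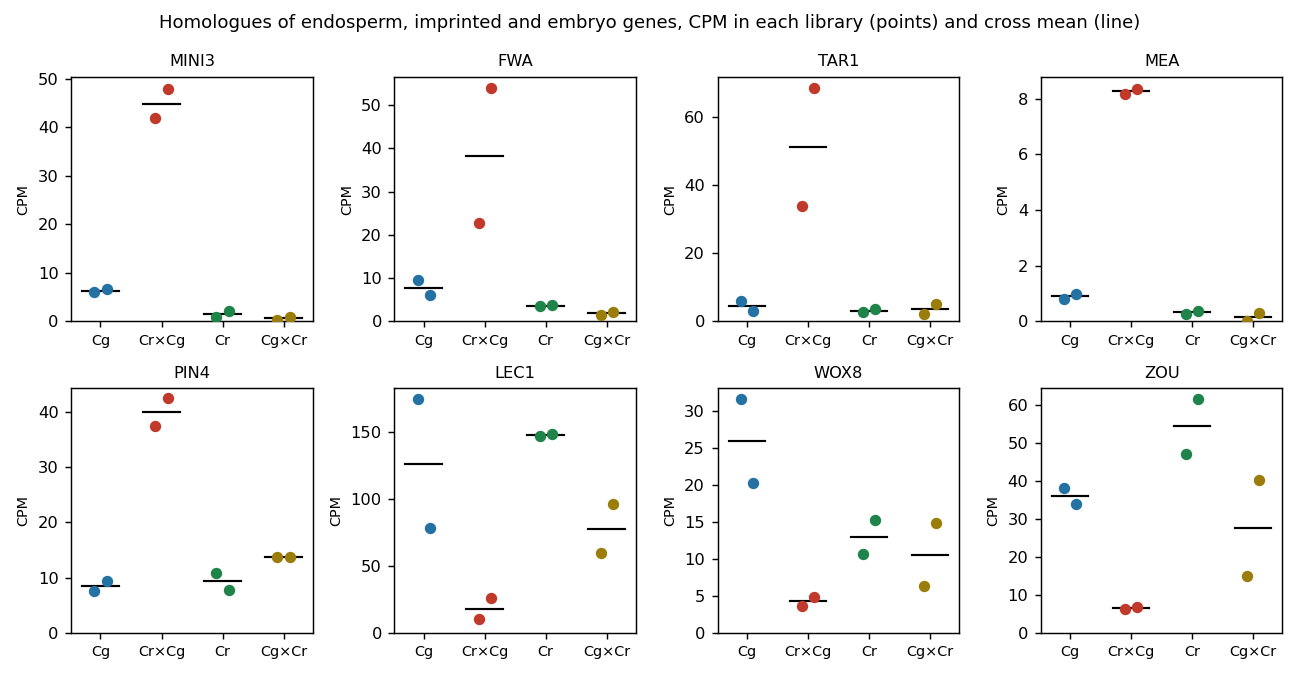
CPM (y axes, from 0) of 8 homologues of endosperm, imprinted and embryo genes in the libraries of Cg, Cr × Cg, Cr and Cg × Cr. Points are libraries and lines the means of 2 libraries. Both Cr × Cg points lie above all others for MINI3 (41.8 and 47.9 CPM), FWA, TAR1, MEA and PIN4, and below all others for LEC1, WOX8 and ZOU (6.36 and 6.79 CPM).

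Storage reserve genes differed widely between replicates. None of 5 seed storage protein genes and none of 9 oleosins and caleosins, all from Arabidopsis seeds, passed the test, although the storage proteins had a median log2 fold change of 4.30. The homologue of the cruciferin gene CRA1 (Carubv10012738m.g, AT5G44120), chosen after its values had been seen, had 0.666 and 0.074 CPM in Cg, 144 and 0.169 CPM in Cr × Cg, 2350.5 and 23.9 CPM in Cr and 307 and 78.0 CPM in Cg × Cr. Replicate 1 was higher in every cross. The log2 fold change of CRA1 was 7.56 ± 3.55 (adjusted p = 0.23), and without Cr × Cg replicate 1 it was -1.15 for Carubv10012738m.g. The 9 oil body genes summed to 444 and 237 CPM in Cg and 655 and 77.4 CPM in Cr × Cg, with a median log2 fold change of 0.02. Replicate numbers are not tied to a shared batch by the labels.

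Cell wall enzymes moved in both directions. Of 21 tested expansins and xyloglucan endotransglucosylases, which loosen and rebuild the wall, 5 rose and 3 fell (2 and 3 of the 17 from Arabidopsis seeds), or 38.1%, close to the 40.4% of all paired genes. EXPA9 (Carubv10001761m.g, AT5G02260) had 152 and 159 CPM in Cg and 20.4 and 16.1 CPM in Cr × Cg, against 3.62 and 3.04 CPM in Cr and 113 and 136 CPM in Cg × Cr. The gene was thus low in both crosses with a C. rubella mother (log2 fold change -3.09 ± 0.21, adjusted p = 0.00027). EXPA22 (Carubv10007251m.g, AT5G39270) had 0.133 and 0.148 CPM in Cg and 7.34 and 4.34 CPM in Cr × Cg, and was at 0 counts in Cr (log2 fold change 5.34 ± 0.67, adjusted p = 0.0038). EXPA1 (Carubv10020849m.g, AT1G69530) rose from 4.49 and 3.92 CPM to 16.2 and 21.5 CPM (adjusted p = 0.0035). XTH11 (Carubv10018461m.g, AT3G48580) differed within Cg, at 69.0 and 329 CPM, and had 11.8 ± 0.313 CPM in Cr × Cg (mean ± SD, n = 2; adjusted p = 0.013, lost without Cr × Cg replicate 1 at 0.083 and replicate 2 at 0.098). Leaving out Cg replicate 1 or Cr × Cg replicate 2 left 2 or 1 of the 3 lower members called.

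Of 16 tested polygalacturonases and pectate lyases, enzymes that cut pectin, 5 rose and 2 fell, with a median log2 fold change of 1.94. The share called was 43.8%, close to the 40.4% of all paired genes. Among the 10 from Arabidopsis seeds 2 rose and 2 fell. The polygalacturonase Carubv10022105m.g (AT1G80140) had 3.40 and 4.77 CPM in Cg and 37.1 and 109 CPM in Cr × Cg (log2 fold change 4.16 ± 0.54, adjusted p = 0.0034). QRT2 (Carubv10015662m.g, AT3G07970), which separates pollen grains in Arabidopsis, had 1.43 and 0.814 CPM in Cg and 6.53 and 17.7 CPM in Cr × Cg (adjusted p = 0.017). The members that fell were Carubv10024765m.g (AT2G43870), with 8.86 and 4.70 CPM in Cg and 0.328 and 0.422 CPM in Cr × Cg (adjusted p = 0.0032), and Carubv10017170m.g (AT3G62110), with 93.2 and 67.1 CPM against 27.2 and 24.7 CPM (adjusted p = 0.0049). QRT2 lost its call without Cg replicate 1 (0.073), Cg replicate 2 (0.095) and Cr × Cg replicate 2 (0.12), and the 5 higher members became 1 without each of these libraries.

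Of 17 tested pectinesterases, which remove methyl groups from pectin, 4 rose and 2 fell, with a median log2 fold change of 0.95. The share called was 35.3%, below the 40.4% of all paired genes. Among the 9 from Arabidopsis seeds 2 rose and 1 fell. PME3 (Carubv10013226m.g, AT3G14310) had 6.99 and 10.5 CPM in Cg and 26.3 and 42.1 CPM in Cr × Cg (adjusted p = 0.023), and Carubv10025460m.g (AT2G36710) had 0.266 and 0.222 CPM against 1.58 and 2.78 CPM (adjusted p = 0.028). Carubv10008964m.g (AT1G11590) fell from 25.6 and 22.5 CPM to 9.67 and 12.1 CPM (adjusted p = 0.019) and PME17 (Carubv10022941m.g, AT2G45220) from 0.633 and 0.518 CPM to 0.119 and 0.0843 CPM (adjusted p = 0.04). Of the 4 higher members 2 remained called without Cr × Cg replicate 1 and none without any other of the 4 libraries. All of these calls were lost when a library was left out, for PME3 without Cg replicate 1 (0.14), Cg replicate 2 (0.065) and Cr × Cg replicate 2 (0.11), and for the other 3 without each of the 4 (0.057 to 0.15, 0.056 to 0.10 and 0.087 to 0.17).

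Of 16 tested β-1,3-glucanases, which degrade callose, and β-galactosidases, 5 rose and 5 fell, 2 and 2 among the 8 from Arabidopsis seeds. Here 62.5% were called, against 40.4% of all paired genes. BGAL12 (Carubv10007108m.g, AT4G26140) had 2.06 and 2.63 CPM in Cg and 11.7 and 16.0 CPM in Cr × Cg (log2 fold change 2.56 ± 0.34, adjusted p = 0.0034). The glucanase Carubv10019942m.g (AT1G66250) had 113 and 103 CPM in Cg and 22.7 and 12.7 CPM in Cr × Cg, against 176 and 212 CPM in Cr (log2 fold change -2.61 ± 0.29, adjusted p = 0.0018). A further glucanase, Carubv10007158m.g (AT4G29360), had 81.6 and 76.5 CPM in Cg and 23.1 and 12.6 CPM in Cr × Cg (adjusted p = 0.0039). The glucanase Carubv10013538m.g (AT3G04010) rose from 1.30 and 2.33 CPM to 7.97 and 11.0 CPM (adjusted p = 0.018), a call lost without Cg replicate 1 (0.11) and Cr × Cg replicate 2 (0.093). Without a library, between 1 and 3 members remained higher and between 3 and 4 lower, namely 1, 2, 3 and 1 higher and 3, 4, 3 and 4 lower when Cg replicate 1, Cg replicate 2, Cr × Cg replicate 1 and Cr × Cg replicate 2 were left out.

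Of 72 listed WRKY factors, 11 had a partner. All 10 that were tested were called, against 40.4% of all paired genes, 3 higher and 7 lower (1 and 6 of the 7 from Arabidopsis seeds). The factors without a partner were not examined. WRKY23 (Carubv10023565m.g, AT2G47260), a regulator of auxin responses in Arabidopsis, had 25.6 and 30.3 CPM in Cg and 2.15 and 1.18 CPM in Cr × Cg, while Cr and Cg × Cr libraries had between 16.1 and 25.4 CPM (log2 fold change -4.05 ± 0.39, adjusted p = 0.0010). WRKY8 (Carubv10026746m.g, AT5G46350) had 13.5 and 9.36 CPM in Cg and 0.507 and 0.590 CPM in Cr × Cg (log2 fold change -4.37 ± 0.51, adjusted p = 0.0020). Beside MINI3, WRKY74 (Carubv10001454m.g, AT5G28650) was among the higher members, with 1.33 and 1.33 CPM in Cg and 5.13 and 17.9 CPM in Cr × Cg (adjusted p = 0.014, lost without Cg replicate 1 at 0.088, Cg replicate 2 at 0.076 and Cr × Cg replicate 2 at 0.11). With 1 of the 4 libraries left out, between 4 and 5 members remained lower, and none higher except without Cr × Cg replicate 1.

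Of 12 tested sugar transport genes, 1 rose and 3 fell (1 and 2 of the 9 from Arabidopsis seeds), or 33.3%, below the share of all paired genes. SWEET17 (Carubv10006856m.g, AT4G15920), a fructose transporter, had 89.1 and 65.8 CPM in Cg and 3.73 and 4.17 CPM in Cr × Cg, against 85.5 and 171 CPM in Cr and 31.9 and 79.0 CPM in Cg × Cr (log2 fold change -4.29 ± 0.54, adjusted p = 0.0034). SWEET7 (Carubv10003485m.g, AT4G10850) had 159 and 149 CPM in Cg and 273 and 279 CPM in Cr × Cg (log2 fold change 0.84 ± 0.21, adjusted p = 0.033). The cell wall invertase cwINV1 (Carubv10013316m.g, AT3G13790) fell from 7.16 and 5.29 CPM to 3.25 and 2.70 CPM (adjusted p = 0.037). SWEET7 and cwINV1 lost their calls without each of the 4 libraries (0.094 to 0.14 and 0.052 to 0.18).

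Among 16 tested late embryogenesis abundant (LEA) genes, 2 rose and 1 fell, all 3 among the 11 from Arabidopsis seeds. The share called was 18.8%, below the 40.4% of all paired genes. SAG21 (Carubv10002338m.g, AT4G02380) had 2.73 and 5.96 CPM in Cg and 22.8 and 19.9 CPM in Cr × Cg (log2 fold change 2.30 ± 0.42, adjusted p = 0.011, 0.053 without Cg replicate 1). ECP31 (Carubv10015620m.g, AT3G22500) had 1 count in Cg and 0.597 and 2.32 CPM in Cr × Cg (adjusted p = 0.023, lost without Cg replicate 1 at 0.096, Cg replicate 2 at 0.12 and Cr × Cg replicate 2 at 0.12). LEA14 (Carubv10010557m.g, AT1G01470) fell from 6.49 and 4.29 CPM to 1.19 and 0.801 CPM (adjusted p = 0.0071, 0.051 without Cr × Cg replicate 2). Of 5 pathogenesis-related and chitinase genes, 1 rose and 2 fell (0 and 2 of the 4 from Arabidopsis seeds). For this list 60.0% were called, against 40.4% of all paired genes. The chitinase Carubv10017824m.g (AT3G54420) had 13.2 and 7.21 CPM in Cg and 1.37 and 1.18 CPM in Cr × Cg (adjusted p = 0.0030). PR5 (Carubv10020799m.g, AT1G75040) with 0.999 and 1.11 CPM in Cg against 10.7 and 5.65 CPM (adjusted p = 0.048) and Carubv10023810m.g (AT2G43570) with 1.07 and 1.74 against 0.119 and 0.169 CPM (adjusted p = 0.038) lost their calls without each of the 4 libraries (0.09 to 0.21 and 0.087 to 0.17).

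The remaining lists were small, and their counts are read beside the 40.4% called among all paired genes. Of 5 light harvesting and Rubisco genes 1 fell, none of the 4 from Arabidopsis seeds, namely Carubv10023856m.g (AT2G34430), with 30.4 and 19.3 CPM in Cg and 8.27 and 4.34 CPM in Cr × Cg (adjusted p = 0.019, lost without Cg replicate 1 at 0.10 and Cr × Cg replicate 2 at 0.095). Of 3 core histones 1 rose, an H2A.Z (Carubv10014898m.g, 0.073 to 0.18 without each of the 4 libraries), of 4 heat shock proteins 1 fell, and of 2 defensins PDF2.2 (Carubv10018340m.g, 0.056 without Cr × Cg replicate 2) fell, while none of 2 cellulose and callose synthases and not the 1 flavonoid gene was called. The heat shock gene, an HSP70 (Carubv10013177m.g, AT3G12580), had 450.4 and 99.5 CPM in Cg and 45.7 and 30.7 CPM in Cr × Cg, so that Cg replicate 1 stood above replicate 2 (adjusted p = 0.0496, and 0.2, 0.16 and 0.24 without Cg replicate 1, Cr × Cg replicate 1 and Cr × Cg replicate 2). No DNA replication gene had a partner.

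**Figure D4:**
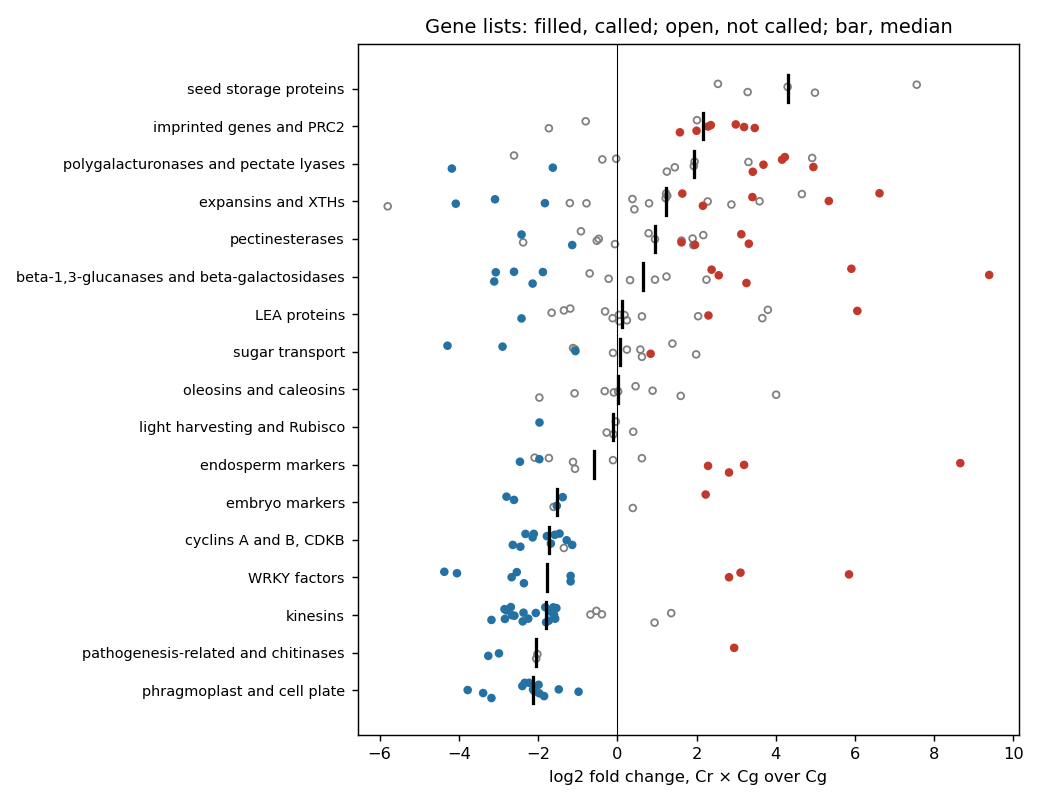
Log2 fold change of Cr × Cg over Cg (x axis) for the tested members of the lists with at least 5 of them (rows). Filled points were called higher (red) or lower (blue), open points were not called, and bars are medians, which run from -2.13 for phragmoplast and cell plate genes to 4.30 for seed storage proteins, of which none was called.

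The genes with the largest stable fold changes had at most 2 counts over both libraries of the lower cross, and the genes that fell had at most 1 count in Cr. Carubv10025484m.g had 17.5 and 60.8 CPM in Cg and 31.3 and 23.7 CPM in Cg × Cr, and no count in Cr × Cg or in Cr, at least 725-fold lower in Cr × Cg than in Cg (adjusted p = 0.0053). Carubv10007795m.g had 95.3 and 128 CPM in Cg and 132 and 70.3 CPM in Cg × Cr, against 1 count in Cr × Cg and none in Cr. The ratio of Cg to Cr × Cg was 6347, with a 95% exact counting interval from 1139 to 250726 (adjusted p = 0.00026). Carubv10012096m.g had 9.16 and 16.1 CPM in Cg and no count in Cr × Cg, at least 238-fold lower (adjusted p = 0.00096). Carubv10016182m.g (12.2 and 36.4 CPM in Cg, 0 and 0.0843 CPM in Cr × Cg, adjusted p = 0.0041) and Carubv10020144m.g (6.23 and 20.8 against 0.0298 and 0.0422 CPM, adjusted p = 0.0039) had no count in Cr and between 6.37 and 17.6 CPM in Cg × Cr. These genes were thus detected with a C. grandiflora mother and at or near 0 with a C. rubella mother, although the father of Cr × Cg was C. grandiflora. Lower bounds use a limit of 3 counts over the 2 libraries at 0, and intervals and bounds cover counting error only.

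The largest rises had the opposite pattern. Carubv10007661m.g had no count in Cg, 34.2 and 57.7 CPM in Cr × Cg, 43.7 and 25.1 CPM in Cr and 0.398 and 1.89 CPM in Cg × Cr, at least 836-fold higher in Cr × Cg than in Cg (adjusted p = 0.0033). Carubv10019219m.g had no count in Cg, 14.6 and 14.7 CPM in Cr × Cg, 11.9 and 12.2 CPM in Cr and 1.69 and 2.16 CPM in Cg × Cr (at least 278-fold higher, adjusted p = 0.00021). Carubv10028246m.g (16.7 and 9.23 CPM in Cr × Cg, at least 259-fold higher, adjusted p = 0.00088) and Carubv10023473m.g (12.2 and 12.9 CPM, at least 237-fold higher, adjusted p = 0.0014) also had no count in Cg. In Cg × Cr, where the C. rubella genome came from the father, each of these 4 genes had between 0.398 and 2.42 CPM. PRF5 (Carubv10016013m.g, AT2G19770), a profilin that binds actin, was an exception among the 5 largest rises. It had 36.7 and 39.3 CPM in Cr × Cg, 1 count in Cg, 2.49 and 1.13 CPM in Cr and at most 0.416 CPM in Cg × Cr, a ratio to Cg of 2156 (95% exact counting interval 387 to 85193, adjusted p = 0.003).

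In all, 49 genes had no count in either Cg library and at least 20 counts in each Cr × Cg library, and 19 genes had the reverse. With at least 50 counts these were 30 and 5. A count of 0 over both libraries allows a level of up to 0.0526 CPM in Cg and 0.0524 CPM in Cr × Cg. Of the 49 genes, 26 had at least 20 counts in each Cr library and 9 had none in Cr, and their median level was 2.90 CPM in Cr × Cg, 0.909 CPM in Cr and 0.234 CPM in Cg × Cr. In 48 of the 49 both Cg × Cr libraries were below both Cr × Cg libraries. Of the 19 genes, 8 had no count in Cr and none had 20 counts in each Cr library, whereas 13 had at least 20 in each Cg × Cr library, with medians of 1.43 CPM in Cg and 1.54 CPM in Cg × Cr. A further gene of the 19, Carubv10011614m.g, had 9.46 and 10.6 CPM in Cg and 18.6 and 1.55 CPM in Cg × Cr (at least 191-fold lower in Cr × Cg, adjusted p = 0.035, lost without each of the 4 libraries at 0.12 to 0.15). The genome of C. rubella served as reference for every library, and the loss of reads from C. grandiflora alleles was not tested.

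The stable changes with the largest differences in CPM concerned genes that were expressed in both crosses. MIPS1 (Carubv10004613m.g, AT4G39800), which makes the precursor of inositol and phytate, had 1569 and 1558 CPM in Cg and 89.5 and 83.9 CPM in Cr × Cg, against 833 and 1285 CPM in Cr and 624 and 793 CPM in Cg × Cr. Its log2 fold change was -4.17 ± 0.31 (adjusted p = 0.00037). ENODL3 (Carubv10007282m.g, AT4G28365), an early nodulin-like protein of the plasma membrane, had 1084 and 461 CPM in Cg and 20.3 and 25.8 CPM in Cr × Cg, and between 346 and 802 CPM in the other crosses (log2 fold change -5.07 ± 0.58, adjusted p = 0.0021). Carubv10018643m.g (AT5G38160), of the lipid-transfer and 2S albumin superfamily, had 1931 and 792 CPM in Cg and 175 and 68.6 CPM in Cr × Cg, and between 1041 and 1280.0 CPM in the other crosses (log2 fold change -3.48 ± 0.56, adjusted p = 0.0073). These genes were low in Cr × Cg alone. Carubv10013912m.g, without a partner, had 771 and 932 CPM in Cg, 111 and 187 CPM in Cr × Cg, 5.36 and 12.5 CPM in Cr and 359 and 351 CPM in Cg × Cr, so that it was low with a C. rubella mother (log2 fold change -2.51 ± 0.42, adjusted p = 0.0080).

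Among the rises in CPM, PAP1 (Carubv10026184m.g, AT1G13750), a purple acid phosphatase, had 3.86 and 7.29 CPM in Cg, 343 and 470.3 CPM in Cr × Cg, 179.6 and 163 CPM in Cr and 4.22 and 18.6 CPM in Cg × Cr. It was high with a C. rubella mother (log2 fold change 6.19 ± 0.77, adjusted p = 0.0039). RD20 (Carubv10023959m.g, AT2G33380), a caleosin induced by drought in Arabidopsis that is not among the listed oil body genes, had 162 and 152 CPM in Cg and 588 and 1029 CPM in Cr × Cg (log2 fold change 2.36 ± 0.32, adjusted p = 0.0037). CCoAOMT1 (Carubv10005466m.g, AT4G34050), an enzyme of lignin biosynthesis, had 103 and 189 CPM in Cg and 934 and 639 CPM in Cr × Cg (log2 fold change 2.43 ± 0.34, adjusted p = 0.0039). Both were at intermediate levels in Cr, with 379.9 and 300.5 CPM of RD20 and 361 and 297 CPM of CCoAOMT1. Carubv10006929m.g, without a partner, had 52.2 and 55.3 CPM in Cg and 391 and 343 CPM in Cr × Cg, but between 7.85 and 14.2 CPM in Cr and Cg × Cr (log2 fold change 2.77 ± 0.22, adjusted p = 0.00054).

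The same exchange of the mother was measured with a C. rubella father by comparing Cr with Cg × Cr, which shares no library with the comparison of Cr × Cg and Cg. With this father 1373 genes were called (6.47%), 405 higher and 968 lower in Cr. With both fathers 646 genes were called, 20.5% of the calls with a C. grandiflora father and 47.1% of those with a C. rubella father. Of these 646, 584 had the same direction, 219 higher and 365 lower with a C. rubella mother, and 62 had opposite directions. With Cr replicate 1 or 2 left out these calls numbered 494 or 241, and with Cg × Cr replicate 1 or 2 left out they numbered 578 or 602.

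Whether the effect of the mother differed between fathers was tested as the interaction of both. The same contrast sets both hybrid crosses against both parental crosses. A dependence on the father and an effect of hybrid seeds therefore cannot be told apart. The interaction was called for 1240 genes (5.85%), positive in 587 (2.77%) and negative in 653 (3.08%). Of the 3155 genes called with a C. grandiflora father, 976 (30.9%) also had a called interaction. In 585 of the lower genes it was negative, that is, they fell more with a C. grandiflora father, and the median log2 fold change of lower genes with an interaction was 0.44 with a C. rubella father. Of the higher genes, 351 had a positive interaction. The interaction shares the Cr × Cg and Cg libraries with the main comparison, so these shares are not independent of it. Leaving out Cr replicate 2 left 322 called interactions, Cg replicate 1 left 371, Cr × Cg replicate 2 left 437 and Cg × Cr replicate 2 left 725.

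Many division genes were among those with a called interaction. The interaction was called and negative for 12 of 13 phragmoplast and cell plate genes, 18 of 24 kinesins and 8 of 12 mitotic cyclins and kinases, against 22.3% called among all paired genes. Members chosen on these Capsella libraries are not independent evidence of it, and among those from Arabidopsis seeds it was called and negative for 8 of 9, 12 of 16 and 8 of 12. With a C. rubella father none of these 3 lists had a called member, and their median log2 fold changes were 0.38, 0.36 and 0.34. For HINKEL (Carubv10008207m.g) the interaction was -3.52 ± 0.32 on the log2 scale (adjusted p = 0.0036). Of the 10 imprinted and Polycomb genes 2 had a positive and 1 a negative interaction.

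**Figure D5:**
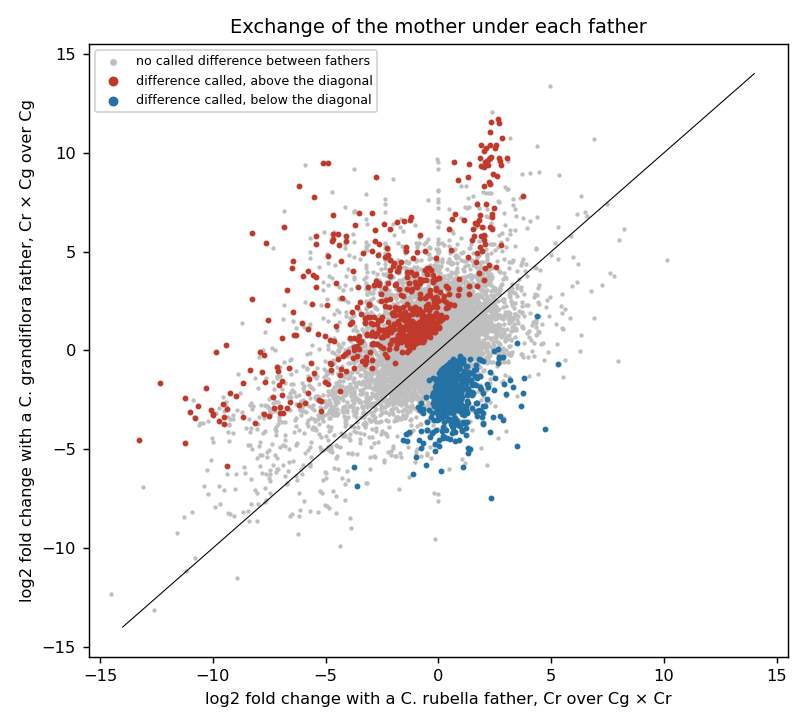
Log2 fold change for a C. rubella against a C. grandiflora mother with a C. grandiflora father (y axis) and with a C. rubella father (x axis), 1 point per tested gene, with the diagonal of equal change. Genes with a called interaction are red above the diagonal (587) and blue below it (653).

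In Arabidopsis, pollen of osd1 mutants is unreduced and gives seeds with paternal genome excess. Of 830 tested homologues of genes listed as higher in such seeds, 235 rose and 38 fell in Cr × Cg, with a median log2 fold change of 1.19 (32.9% called). Of 1063 tested homologues of genes listed as lower there, 373 were lower and 38 higher, with a median of -0.83 (38.7% called). Both shares called were above the 14.9% of all tested genes, of which 7.28% rose and 7.59% fell. They were below the 40.4% of all paired genes, but these include genes chosen on these Capsella libraries. With 1 of the 4 libraries left out, fewer of both groups remained called. Leaving out Cg replicate 1 or 2 left 52 or 60 of the former higher, and leaving out Cr × Cg replicate 1 or 2 left 146 or 75. Of the latter, 223 remained lower without Cg replicate 1, and 206 when Cr × Cg replicate 2 was left out.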

How the data were processed

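RNA of seeds was sequenced from 4 crosses with 2 replicates each. The authors mapped reads with Stampy to the C. rubella reference (Phytozome), used Samtools to remove those with several mapping positions, and ran htseq-count. The submitters' notes also name Trimmomatic. The deposited values are raw counts per gene, without normalization. These were fitted by the robust quasi-likelihood method of edgeR 4.0.16 (R 4.3.3) over all 8 libraries, after filterByExpr with a count minimum of 10 and TMM scaling, with Benjamini-Hochberg adjustment over 21214 genes, and genes were called at an adjusted p under 0.05. The fit was tested on simulated data. Alternatives were DESeq2 1.42.0, its size factors, no filter, a filter at 1 CPM in 2 libraries, a replicate block, a fit without the other crosses, a log2 fold change of at least 1, and each library left out. Rank products, by which the study ranked genes, were not run.

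Arabidopsis partners were taken from the study's gene tables, without their values. Members and lists were chosen with earlier results of these data known. Genes were named by a rule: per direction, the 5 stable genes with the largest fold change (mean of at least 10 CPM in the higher cross) and, among the same genes, the 4 with the largest difference in CPM, where stable means called with each of the 4 libraries left out; the 2 called members of each list and direction with the lowest adjusted p; and the 3 genes with most counts among those at 0 in one cross and with at least 20 in each library of the other. A further list, with the genes named through it, is not reported here. Exceptions are marked. Lists with fewer than 5 tested members are given as counts. Tables and plots were made in Python 3.11.15 (pandas 2.3.3, matplotlib 3.10.9, NumPy 2.4.6, SciPy 1.17.1).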

Additional observations from a re-analysis of the deposited data

Results flagged for a closer look

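For 43 of the 71 named genes the effect of the mother differed between fathers, by the interaction test of edgeR at an adjusted p under 0.05. The interaction was called for 5.85% of all tested genes and for 22.3% of the paired genes. Most named genes were chosen by their change between Cr × Cg and Cg. The interaction shares these libraries, so that a high share among named genes was partly fixed by the choice. The same contrast sets hybrid against parental seeds, and these readings cannot be told apart. Values are log2 differences, the change with a C. grandiflora father less the change with a C. rubella father, and 2 libraries per cross stand behind each. Among cell division genes the difference was -3.52 for HINKEL (Carubv10008207m.g), -2.92 for KINESIN-12B (Carubv10012821m.g), -3.56 for CSLD5 (Carubv10008123m.g), -2.90 for TAN1 (Carubv10013577m.g), -4.43 for KNOLLE (Carubv10012277m.g), -2.35 for EDE1 (Carubv10023133m.g), -1.98 for CYCB1;2 (Carubv10000856m.g), -3.34 for CYCB1;3 (Carubv10013824m.g) and -1.27 for TUB8 (Carubv10000948m.g). None of these had a called change with a C. rubella father.

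Among embryo and endosperm genes it was -3.73 for LEC1 (Carubv10011036m.g), -2.73 for LEC2 (Carubv10010882m.g), -2.90 for WOX8 (Carubv10027735m.g), 2.78 for PIN4 (Carubv10016856m.g), -3.44 for ZOU (Carubv10011964m.g), 3.70 for TAR1 (Carubv10011523m.g) and -2.09 for HDG3 (Carubv10022676m.g). HDG3 was called higher in Cr than in Cg × Cr (adjusted p = 0.042) and was not called between Cr × Cg and Cg.

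Among cell wall genes the difference was 1.81 for EXPA1 (Carubv10020849m.g), 9.76 for EXPA22 (Carubv10007251m.g), 2.13 for EXPA9 (Carubv10001761m.g), 4.66 for Carubv10022105m.g, 7.97 for QRT2 (Carubv10015662m.g), -3.87 for Carubv10024765m.g, -1.80 for Carubv10017170m.g, 2.36 for BGAL12 (Carubv10007108m.g), -3.31 for Carubv10019942m.g and -2.73 for Carubv10007158m.g. EXPA9 fell with both fathers, with a log2 fold change of -5.22 with a C. rubella father and -3.09 with a C. grandiflora father.

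Among other listed genes it was 5.38 for SAG21 (Carubv10002338m.g), -3.95 for WRKY23 (Carubv10023565m.g), -4.01 for WRKY8 (Carubv10026746m.g), -3.91 for PDF2.2 (Carubv10018340m.g), -3.84 for Carubv10023856m.g, -2.31 for the chitinase Carubv10017824m.g, -5.50 for SWEET17 (Carubv10006856m.g) and -2.21 for cwINV1 (Carubv10013316m.g). SAG21 rose with a C. grandiflora father (log2 fold change 2.30) and fell with a C. rubella father (-3.08, adjusted p = 0.0085).

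Among genes with large changes it was 1.84 for RD20 (Carubv10023959m.g), 3.28 for Carubv10006929m.g, -4.75 for MIPS1 (Carubv10004613m.g), -3.44 for Carubv10018643m.g, -4.90 for ENODL3 (Carubv10007282m.g) and 2.80 for Carubv10013912m.g. For genes without a count in Cg the fitted difference depends on a prior count and is no measured size, and it was 9.07 for Carubv10019219m.g, 9.21 for Carubv10028246m.g and 8.81 for Carubv10023473m.g. The same holds for EXPA22, which had no count in Cr. QRT2 had 1 and 0 counts in the Cr libraries, so its difference also rests on counts near 0.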

How the results depend on the processing

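The 1544 higher and 1611 lower genes stayed within 1.5 times of these counts under every alternative except leaving out a library, which gave 440 to 1549 higher and 569 to 1477 lower genes. With the replicate block they were 1338 and 1431, and 1071 in place of 1373 genes differed between Cr and Cg × Cr, with 932 in place of 1240 interactions. Correlations of same-numbered deviations were -0.176 for Cg with Cr × Cg, 0.221 for Cr with Cg × Cr, and between -0.124 and 0.333 for the other pairs of crosses, so the numbers were not taken to pair the libraries, and with the Cg numbers crossed, an alternative chosen after seeing the data, there were 1889 and 1849. DESeq2 called 2097 and 2115. It called 2536 in place of 1373 genes between Cr and Cg × Cr and 2524 in place of 1240 interactions. Leaving out a library gave 241 to 1156 and 322 to 940. With at least 50 counts, genes without a count were 30 in Cg and 5 in Cr × Cg. Of the 71 named genes, 69 were called, and 41 of these kept the call with each of the 4 libraries left out. Both counts were partly fixed by the naming rule, which took list members from called genes and the largest changes from stable genes. Under the other settings 8 values lost and 1 gained a call. The replicate block lost the calls of PR5 (adjusted p = 0.052) and Carubv10023810m.g (0.051) and of no other named gene. For CRA1 (Carubv10012738m.g) the log2 fold change was -1.15 without Cr × Cg replicate 1 and up to 9.85 without Cg replicate 1, and DESeq2 called it (adjusted p = 0.016). The cause of these shifts was not tested. Promoter motifs were not run, since no promoter sequences were at hand. Low counts limit the genes at or near 0 in one cross.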
